A study of Mus musculus with 11 samples.

Results

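The protein-coding genes on either side of Cdkn1a, the gene for the cyclin-dependent kinase inhibitor p21, were examined in RNA-seq of mouse thymocytes. The genes were those annotated as protein-coding with a gene start on chromosome 17 between 24000000 and 30100000 (GRCm38) and at least 20 counts in at least 3 mice, so they were selected on position and on their counts. Of 54418 genes in the count table, 187 protein-coding genes started in this window. Of these, 50 were under the minimum and 10 were left out by name (Cdkn1a, Dusp1, Bak1, Fkbp5, Srsf3, Pim1, Rpl10a, Rps2, Rps10 and Ndufb10), which left 127 genes, called flanking genes here. The window and the left-out names were chosen by hand after the expression differences of the TKO mice from the others had been seen, so the TKO values of the flanking genes are given as a description and nothing is read from how many of them differed. The window was not drawn on the comparison of Zmat3-/- with wt mice, although these mice were the others in the differences that had been seen.

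The study asked what role Zmat3 has in tumour suppression, alone and when Puma and p21 are lost with it. RNA-seq of thymocytes, the immature T cells that mature in the thymus, was part of that work. Mice of 3 genotypes were sequenced at 8–12 weeks of age on a C57BL/6-WEHI background: 4 wt mice, 4 Zmat3-/- mice and 3 Puma-/-p21-/-Zmat3-/- mice (TKO). The Zmat3-/- and TKO mice share the loss of Zmat3, an RNA-binding protein. The TKO mice also lack Puma, a pro-apoptotic BH3-only protein encoded by Bbc3, and p21, so TKO against Zmat3-/- differs by these alleles and by whatever was bred together with them. All alleles were constitutive, the TKO mice came from serial crosses of Zmat3-/- with Puma-/-p21-/- mice, untreated cells were used, and the labels do not give the sex of the mice.

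A gene-targeted allele is passed on together with the stretch of chromosome around it. Recombination in later crosses shortens that stretch, so genes close to the targeted gene are inherited with it more often than distant ones. This is general knowledge about linkage. Gene counts hold no sequence, and the strain from which the flanking chromosome came in any of these mice was not tested. The flanking genes have no shared function: they include kinases and regulators of growth signalling, splicing factors, chromatin proteins, mitochondrial enzymes and proteins of lysosomes and vesicles.

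The window began after Prss30 (start 23972126), with Kctd5 (24047734) as its first gene, and ended with Zfand3 (30004733), ahead of Btbd9 (30215524). At the count minimum, the third-highest count over the 11 mice was 23 for Tmem204 and Rab26 and 27 for Caskin1, which were kept. It was 19 for Mapk13, 18 for Scube3 and 16 for Ccdc78, which were not. Cdkn1a itself starts at 29090976, so most of the window lies on one side of it. The span of 84 of the 127 flanking genes overlapped that of another gene in the table, and this held for 5 of the 7 genes called below.

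Several flanking genes have near-identical copies elsewhere in the genome, and for 3 of them the sequence decides how the counts can be read. The stretches below are coding sequence from GENCODE M21 (GRCm38), 5′ to 3′, numbered from 1 at the A of the start codon of the flanking gene. Capitals mark bases that differ between the gene and its copy. Hmga1 (chr17:27556497-27563674, + strand) and Hmga1b (chr11:120762794-120764419, + strand) are shown from base 1 to 90, and all 324 coding bases of an Hmga1 transcript were identical in Hmga1b.
Hmga1: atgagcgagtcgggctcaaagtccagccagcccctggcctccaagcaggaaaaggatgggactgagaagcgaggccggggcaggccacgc
Hmga1b: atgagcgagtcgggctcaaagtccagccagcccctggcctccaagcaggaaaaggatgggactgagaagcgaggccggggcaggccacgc

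Rnps1 (chr17:24414565-24425901, + strand) and Gm9825, a processed pseudogene that RefSeq names Rnps1-ps (chr6:7982541-7983383, - strand), are shown from base 243 to 332, the 90 bases with most differences. The differences were C243A and C332T, and 838 of 843 aligned coding bases (99.4%) were identical.
Rnps1: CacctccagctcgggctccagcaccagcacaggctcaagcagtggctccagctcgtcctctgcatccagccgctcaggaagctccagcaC
Gm9825: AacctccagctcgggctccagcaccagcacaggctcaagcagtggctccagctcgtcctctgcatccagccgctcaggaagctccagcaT

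Atp6v0c (chr17:24163866-24169702, - strand) and the processed pseudogene Atp6v0c-ps2 (chr6:37806086-37806550, + strand) are shown around their single difference, T111C. In this pair 464 of 465 aligned coding bases (99.8%) were identical.
Atp6v0c: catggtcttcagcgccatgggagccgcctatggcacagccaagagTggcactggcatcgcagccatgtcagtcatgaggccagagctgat
Atp6v0c-ps2: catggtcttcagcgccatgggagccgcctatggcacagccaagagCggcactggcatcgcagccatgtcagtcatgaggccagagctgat

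A library held between 17669715 and 80207003 counts. The summed level of 10 thymocyte markers, among them Cd3e, Cd4 and Cd8a, was between 12132 and 14968 counts scaled to a common library size (CPM) in all 11 mice. Markers of other cells summed to 45.3 to 109 CPM for 5 B cell genes, 105 to 253 for 6 myeloid genes, 27.3 to 122 for 7 stromal and epithelial genes and 570 to 5407 for 4 erythroid genes. Their part in the results was not tested, and the range of each list in TKO mice lay within the range of the other mice or overlapped it. Cdkn1a was between 2.24 and 3.62 CPM in TKO mice, between 3.61 and 10.4 in wt mice and between 4.85 and 8.78 in Zmat3-/- mice. Bbc3 was between 11.8 and 16.0 CPM in TKO mice and between 15.5 and 20.2 in the other mice, and Zmat3 between 5.41 and 8.27 CPM in both mutant groups and between 10.1 and 27.9 in wt mice. None of the targeted genes was at 0 in the mice that carry its mutant allele, and the gene counts do not show which exons were counted.

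The wt mice differed among themselves. Values of wt 1 and wt 2 did not overlap those of wt 3 and wt 4 in 96 of 122 flanking genes (78.7%), and in 81.7% of all genes, with a median absolute log2 difference of 0.48 for the flanking genes. The same split of the Zmat3-/- mice gave no overlap in 75 of 122 flanking genes (61.5%) and in 54.2% of all genes, with a smaller median difference of 0.12. Single markers of thymocytes and thymic epithelium differed along the same split: Rag1, of antigen receptor rearrangement, was at 1633 and 2250 CPM in wt 1 and 2 and at 5401 and 5153 CPM in wt 3 and 4. Lck, a kinase of T cell receptor signalling, was at 2075 and 1936 CPM against 1365 and 1353 CPM. Of the other thymocyte markers, Cd3e, Cd8b1, Thy1, Ptcra and Dntt were also higher in wt 1 and 2, and Cd4 was slightly lower. Rag2 (191 and 236 against 225 and 217 CPM) and Cd8a overlapped, so the thymocyte list did not move in one direction. Psmb11, a proteasome subunit of cortical thymic epithelium, was at 31.9 and 24.5 CPM against 3.70 and 8.71 CPM. In the same list Epcam, Krt5, Krt8 and Foxn1 were also higher in wt 1 and 2, and Col1a1 and Pdgfra overlapped. Their part in the results was not tested. Counts of calls and of genes not overlapping in comparisons with wt are therefore also given without wt 1 and 2 and without wt 3 and 4, alternatives that were added after the data had been seen. The level of Xist, a transcript of the inactive X chromosome, was 514 and 622 CPM in wt 1 and 2. It was 1.74 and 2.65 CPM in wt 3 and 4, while the Zmat3-/- and TKO groups held both high and low mice. Genotype is therefore partly confounded with the Xist level in those fits. Fewer cells of a type and less RNA per cell cannot be told apart in these bulk samples.

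In TKO against Zmat3-/- mice, which share the Zmat3 mutation, 7 flanking genes differed at an adjusted p below 0.05. Of these, 6 were lower in TKO mice (Baiap3, Hmga1, Gnptg, Anks1, Rnps1 and Atp6v0c) and Pdpk1 was higher. These were 7 of 119 tested flanking genes (5.88%), beside 0.221% of all 13124 genes tested. By direction, the shares of all genes were 0.145% higher and 0.0762% lower in TKO mice. The test was edgeR's quasi-likelihood test, two-sided, with Benjamini-Hochberg adjustment over all genes tested, and adjusted p values below come from it unless another test is named. An unadjusted p below 0.05 was found for 32 of the 119 (26.9%, beside 4.50% of all genes), and TKO and Zmat3-/- mice did not overlap for 31 (26.1%, beside 5.64%). The log2 fold change was over 0.5 in size in 12 (10.1%, beside 3.12%). When the wt mice shared the fit, the calls were 2, Baiap3 and Anks1. The 8 flanking genes that were not tested had too few counts (Caskin1, Rab26, Slc9a3r2, Noxo1, Tmem204, Msln, Grm4 and Mdga1). Of these, Grm4, a metabotropic glutamate receptor gene, was at most 0.747 CPM in the wt and Zmat3-/- mice and at 0.931, 1.23 and 2.12 CPM in the TKO mice. It had 20 or more counts only in wt 2 (30) and in the TKO mice (36, 21 and 175), so it met the count minimum through the TKO mice and its difference is given as values only.

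Baiap3 (chr17:25242659-25256364, - strand) fell most. It encodes a protein related to the Munc13 proteins of vesicle exocytosis. Baiap3 was at 29.5, 31.5, 26.9 and 31.6 CPM in the wt mice, at 32.7, 30.9, 38.1 and 41.3 CPM in the Zmat3-/- mice and at 2.59, 2.34 and 3.38 CPM in the TKO mice. The 3 TKO mice were far below all 8 others, whereas wt and Zmat3-/- mice overlapped. Against Zmat3-/- mice Baiap3 was 12.6-fold lower (log2 fold change -3.65 ± 0.160 SE, adjusted p = 9.51e-07). Against wt mice it was the only flanking gene called (log2 fold change -3.41 ± 0.186, adjusted p = 0.000239), at -3.37 without wt 1 and 2 and -3.42 without wt 3 and 4. The end of Baiap3 overlaps that of Tsr3, an rRNA modification enzyme on the other strand. Tsr3 was also lowest in the TKO mice, at 19.7, 17.7 and 15.7 CPM against 20.6 or more in all others, with a log2 fold change of -0.41 ± 0.105 against Zmat3-/- mice (adjusted p = 0.459). The kit does not mark strand and no strand setting is given in the sources used here, so reads from the overlap cannot be assigned to either gene.

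Gnptg (chr17:25233331-25240124, - strand) encodes the gamma subunit of the phosphotransferase that tags enzymes for the lysosome. It was at 54.9, 45.5, 25.3 and 29.6 CPM in wt mice, at 25.9, 27.4, 26.4 and 27.3 CPM in Zmat3-/- mice and at 11.7, 9.84 and 8.79 CPM in TKO mice. No TKO mouse reached the lowest of the other 8. The mean was 10.1 ± 1.47 CPM (SD, n = 3) in TKO and 26.7 ± 0.736 CPM (n = 4) in Zmat3-/- mice, a log2 fold change of -1.41 ± 0.114 (adjusted p = 0.000173). Gnptg overlaps Unkl, a zinc finger gene on the other strand, which was at 49.8, 43.3 and 49.5 CPM in TKO mice and between 56.8 and 66.8 CPM in Zmat3-/- mice (log2 fold change -0.37, adjusted p = 0.314).

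Anks1 (chr17:27909306-28062775, + strand) encodes an ankyrin-repeat adaptor that binds receptor tyrosine kinases. It was at 75.5, 82.7, 101 and 105 CPM in wt mice, at 99.2, 102, 97.0 and 96.9 CPM in Zmat3-/- mice and at 44.8, 50.2 and 49.7 CPM in TKO mice. The TKO mice did not overlap either other group, and the mean was 2.06-fold lower than in Zmat3-/- mice (log2 fold change -1.04 ± 0.0645, adjusted p = 1.61e-05). Anks1 was the called gene nearest to Cdkn1a, 1.18 Mb away.

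Pdpk1 (chr17:24073680-24150924, - strand) encodes the kinase PDK1, which activates AKT. It was at 98.3, 115, 217 and 220 CPM in wt mice, at 229, 229, 248 and 244 CPM in Zmat3-/- mice and at 314, 334 and 364 CPM in TKO mice. All TKO mice were above all Zmat3-/- mice, and all Zmat3-/- mice were above all wt mice. The log2 fold change in TKO against Zmat3-/- mice was 0.50 ± 0.0714 (adjusted p = 0.0188), and the call was lost when Zmat3-/- 1, 2, 3 or 4 or TKO 2 was left out (adjusted p up to 1 over all alternatives, DESeq2 included). Zmat3-/- against wt mice gave 0.55 ± 0.268 (adjusted p = 0.352).

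**Figure D1:**
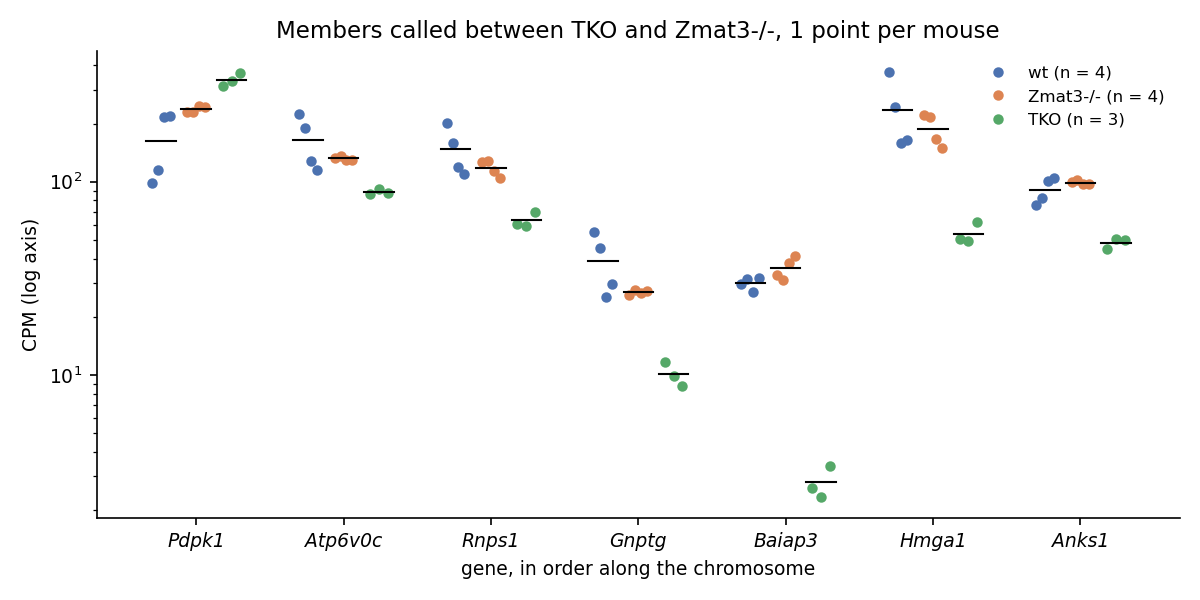
CPM on a log axis for the 7 genes called between TKO and Zmat3-/- mice, in order along the chromosome, with 1 point per mouse and a line at the mean of each genotype. The TKO mice lie below the other 8 mice for 6 genes and above them for Pdpk1, and the wt mice spread more widely than the Zmat3-/- mice for each gene but Baiap3.

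The 3 other called genes have the copies whose sequences are given above. Hmga1, an AT-hook protein that shapes chromatin, was at 370, 243, 159 and 165 CPM in wt mice, at 221, 217, 166 and 150 CPM in Zmat3-/- mice and at 50.3, 49.6 and 61.6 CPM in TKO mice. The log2 fold change of TKO against Zmat3-/- was -1.81 ± 0.147 (adjusted p = 0.000173). Its copy Hmga1b had between 2 and 34 counts in the wt and Zmat3-/- mice and between 2010 and 11279 in the TKO mice, a 253-fold higher mean level than in Zmat3-/- mice. The sum of gene and copy was 235 ± 98.5 CPM in wt (n = 4), 189 ± 36.4 CPM in Zmat3-/- (n = 4) and 175 ± 20 CPM in TKO mice (n = 3). The summed TKO values overlapped those of the other mice, and the log2 fold change of the sum was -0.12 ± 0.138 (adjusted p = 0.983).

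Rnps1, which joins the splicing machinery and the exon junction complex, was at 202, 159, 119 and 109 CPM in wt mice, at 127, 128, 113 and 105 CPM in Zmat3-/- mice and at 60.4, 59.2 and 69.6 CPM in TKO mice. The log2 fold change was -0.92 ± 0.0893 (adjusted p = 0.000843). Gm9825 had at most 2 counts in any wt or Zmat3-/- mouse and between 555 and 2754 in TKO mice, a level at least 314-fold higher than in Zmat3-/- mice when those are set to the floor of 3 counts in each library. The sum of both was 147 ± 42.6 CPM in wt, 118 ± 11.4 CPM in Zmat3-/- and 94.4 ± 7.59 CPM in TKO mice. The sum stayed lower in the 3 TKO mice than in the other 8, with a log2 fold change of -0.34 ± 0.0859 that did not pass (adjusted p = 0.49).

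Atp6v0c, the proteolipid subunit of the proton pump of lysosomes, was at 224, 189, 128 and 115 CPM in wt mice, at 132, 136, 130 and 130 CPM in Zmat3-/- mice and at 85.9, 91.5 and 87.6 CPM in TKO mice. The log2 fold change was -0.59 ± 0.0582 (adjusted p = 0.00088). Atp6v0c-ps2 had at most 3 counts outside TKO mice and between 334 and 1499 in them, at least 181-fold higher than in Zmat3-/- mice. The sum was 106 ± 4.37 CPM in TKO mice, still below the 132 ± 2.93 CPM in Zmat3-/- mice in every mouse, with a log2 fold change of -0.32 ± 0.0591 (adjusted p = 0.125). The gene counts cannot tell whether a read came from the gene or from its copy where the bases are identical.

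**Figure D2:**
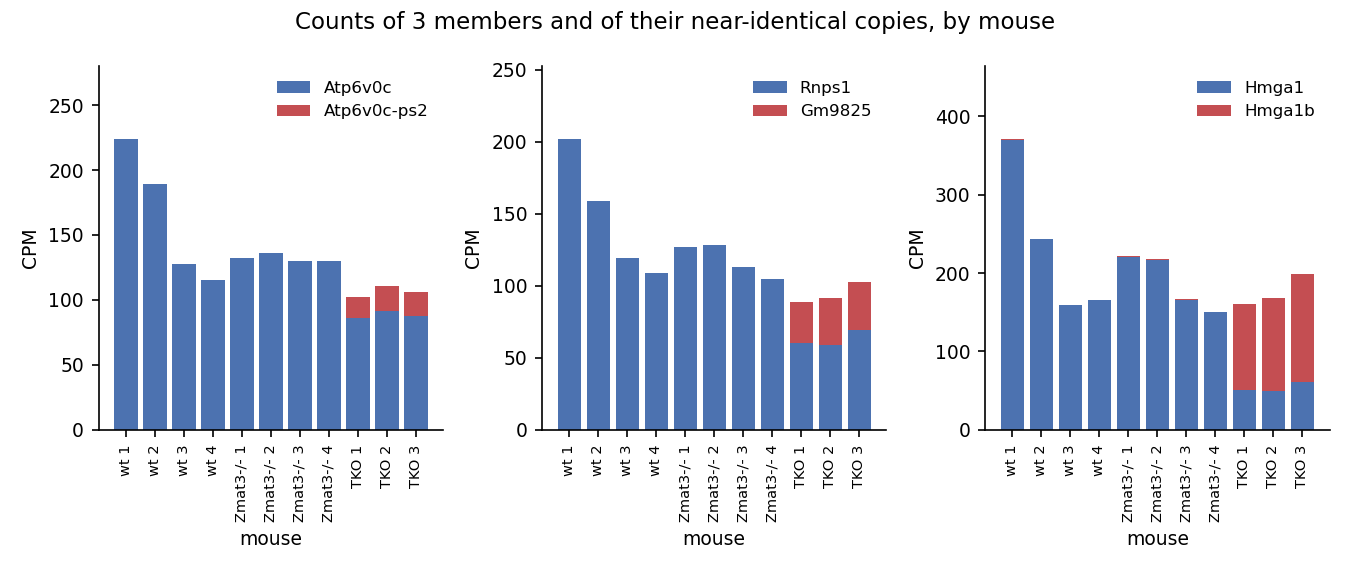
CPM per mouse of Atp6v0c, Rnps1 and Hmga1 (blue) with the CPM of the copy stacked on top (red), for the 11 mice, on axes that start at 0. The red part is visible in the 3 TKO mice for all 3 pairs, with means of 18.1 CPM for Atp6v0c-ps2, and barely or not in the other mice.

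Of the 27 copies of 12 flanking genes in the count table, 7 had at least 20 counts in some mouse. Gm5819, a copy of Unkl, had at most 2 counts in wt and Zmat3-/- mice and 21 to 46 in TKO mice. With the counts of all copies added to the flanking genes they resemble, 4 of the 7 calls were kept: Baiap3, Gnptg, Anks1 and Pdpk1.

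Among 122 flanking genes tested over all 11 mice, the 3 TKO mice lay outside the range of the other 8 in 19 genes (15.6%), beside 1.45% of all 13522 genes. Without wt 1 and 2 there were 23 (2.25% of all genes), and without wt 3 and 4 there were 26 (3.53% of all genes). Pdpk1, Tbc1d24 and Tbc1d22b were above, and 16 were below, beside 0.806% of all genes above and 0.643% below. Besides the 6 lower genes above, the 16 were E4f1, Mlst8, Traf7, Spsb3, BC003965, Tsr3, Lmf1, Haghl, Decr2 and Mtch1. Most of these differences were small. Tbc1d24, a TBC domain protein of vesicle traffic, was at 5.80 to 6.39 CPM in Zmat3-/- and at 8.90, 10.5 and 12.9 CPM in TKO mice (log2 fold change 0.82, adjusted p = 0.0943). Spsb3, a SOCS-box protein, was at 65.0 to 74.7 CPM in Zmat3-/- and at 48.0, 54.3 and 48.6 CPM in TKO mice (-0.46, adjusted p = 0.0667). Decr2, a reductase of peroxisomal fatty acid oxidation, was at 10.2 to 11.1 CPM in Zmat3-/- and at 7.63, 5.16 and 5.04 CPM in TKO mice (-0.85, adjusted p = 0.16). Tbc1d22b, a Rab GTPase-activating protein, was at 61.5 to 64.7 CPM in Zmat3-/- and at 72.1, 88.9 and 95.0 CPM in TKO mice (0.43, adjusted p = 0.186). None of these 4 passed the test.

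Tested against the other 8 mice in one contrast, 5 flanking genes were lower in TKO mice and none higher (4.10% of 122, beside 0.274% of 13522 genes, 0.0444% lower): Baiap3, Hmga1, Gnptg, Rnps1 and Anks1. Hmga1 lost its call without TKO 1, 2 or 3, Gnptg without TKO 2 or 3, and Rnps1 without wt 2 or any 1 of the Zmat3-/- or TKO mice. Without wt 1 and 2 there were 18 (2.44% of all genes), and without wt 3 and 4 there were 63 (34.3% of all genes). Against wt mice alone, Baiap3 was the 1 gene called of 121 (0.826%, beside 0.294% of 13260 genes). In that comparison 34 flanking genes had an unadjusted p below 0.05 (28.1%, beside 10.3% of all genes). Without wt 1 and 2 there were 17 calls (8.15% of all genes) and without wt 3 and 4 there were 63 (43.6% of all genes), so the count against wt rests on which wt mice are used. Those pairs of wt mice also differed in Xist level.

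By function, the called genes were spread. In the list of growth and MAPK signalling genes, 1 of 17 tested genes rose (Pdpk1) and none fell, with 10 log2 fold changes above 0 and 7 below and a median of 0.07, beside calls in 0.145% of all genes higher and 0.0762% lower. In the list of lysosome, vesicle and membrane transport genes, 3 of 12 fell (Baiap3, Gnptg and Atp6v0c) and none rose, 10 of 12 log2 fold changes were below 0 and the median was -0.26, beside a median of -0.05 over all flanking genes and -0.01 over all genes tested. Abca3, a lipid transporter, had the highest value of that list, at 51.5 to 57.6 CPM in Zmat3-/- and 78.9, 66.0 and 84.8 CPM in TKO mice (0.47, adjusted p = 0.107). In each of 3 further lists 1 gene fell: Rnps1 of 10 genes of RNA processing and translation (median -0.03), Hmga1 of 10 of chromatin and transcription (median 0.06) and Anks1 of 9 of DNA repair and cell division (median -0.09). Anks1 is an adaptor of receptor signalling and its place in that last list rests on the list alone. Tbc1d24 (log2 fold change 0.82) and Tbc1d22b (0.43), proteins of vesicle traffic and of Rab GTPases, were in the growth list. In the vesicle list both would be among the values above 0, so the lean of both lists rests partly on where such genes were placed. None of 16 genes of mitochondrial proteins and metabolism passed, with 11 of 16 below 0 and a median of -0.10. With the counts of copies added, Atp6v0c, Rnps1 and Hmga1 did not pass. The lists were chosen with earlier results of these mice known. The proteases of mast cells and testis in the same stretch had no gene above the count minimum. Of the 127 flanking genes 75 were in a list and 52 in none.

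The highest values of the other lists were small and did not pass. Zfp598, a sensor of stalled ribosomes, was at 74.9 to 80.4 CPM in Zmat3-/- and at 81.7 to 85.1 CPM in TKO mice (log2 fold change 0.09). Msrb1, a methionine sulfoxide reductase, had a log2 fold change of 0.10, Tedc2, a protein of centrioles, of 0.11 and Tead3, a transcription factor of the Hippo pathway, of 0.23. Of other genes with a copy by the wider definition only, Snrpc, a protein of the U1 particle, had -0.05, the splicing kinase Srpk1 0.02 and the kinesin gene Kifc5b -0.09. BC004004 had -0.25, Ccdc167 -0.14 and Gm28043 -0.04. All 10 had an adjusted p of 0.983 or more.

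Levels per kb of exon differed widely between flanking genes. In wt mice the highest means were those of Hmga1, at 110.2 CPM per kb (74.8 to 174), and of Def6, a guanine nucleotide exchange factor of T cells, at 108.2 CPM per kb (79.0 to 154), and they did not differ beyond their spread. In TKO mice Hmga1 was at 25.3 CPM per kb and Def6 at 86.3 CPM per kb. Def6 was above Hmga1 in 3 of 4 wt mice, in 2 of 4 Zmat3-/- mice and in 3 of 3 TKO mice, and the counts of the copy Hmga1b are not part of these levels.

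The genes nearest to Cdkn1a were not among those called. On the near side of it, 4930539E08Rik was at 3.36 to 4.78 CPM in Zmat3-/- and 2.87 to 3.90 CPM in TKO mice (log2 fold change -0.35). Kctd20 was at 112 to 117 CPM and at 111 to 124 CPM in the same groups (0.01), and the kinase gene Stk38 at 227 to 263 CPM and at 237 to 249 CPM (-0.06). On the far side, the small GTPase gene Rab44 was at 3.77 to 6.17 CPM in Zmat3-/- and at 5.74 to 5.86 CPM in TKO mice (0.17), and the splicing isomerase Ppil1 at 29.9 to 38 CPM and at 28.6 to 32.3 CPM (-0.16). The TKO mice overlapped the Zmat3-/- mice in each of these 5. Cpne5, a copine that binds membranes in a calcium-dependent way, was at 1.89, 1.88, 1.28 and 1.10 CPM in Zmat3-/- and at 2.77, 2.17 and 4.22 CPM in TKO mice (0.99 ± 0.297, adjusted p = 0.746), the highest log2 fold change of the tested flanking genes.

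**Figure D3:**
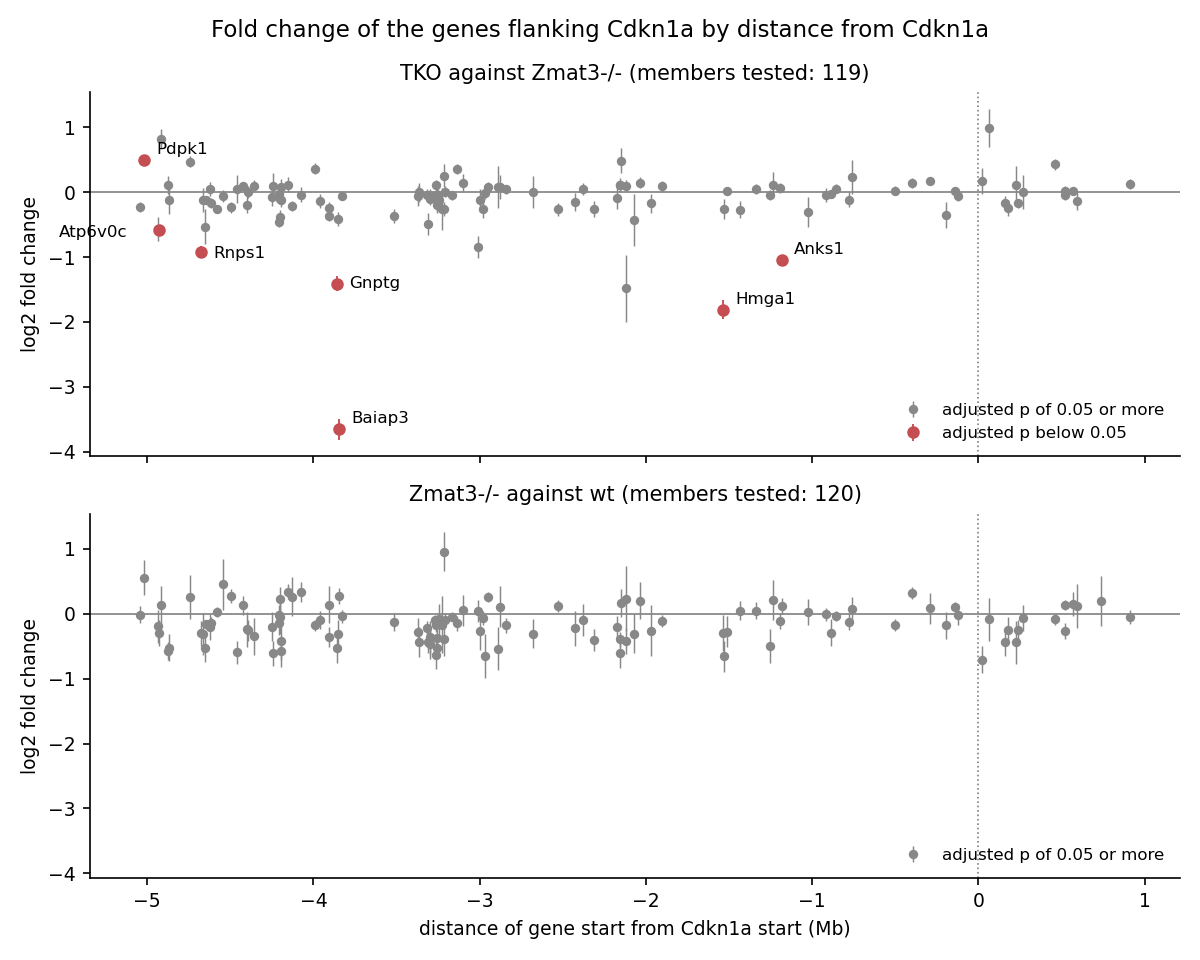
Log2 fold change of each tested flanking gene by the distance of its start from that of Cdkn1a in Mb, for TKO against Zmat3-/- (top, 119 genes) and Zmat3-/- against wt (bottom, 120 genes), with bars for the standard error and genes with an adjusted p below 0.05 in red. The 7 red genes lie between 1.18 and 5.02 Mb on one side of Cdkn1a, and no gene is red in the lower panel.

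All 7 called genes lay between 1.18 and 5.02 Mb from Cdkn1a on the side with lower coordinates, where 106 flanking genes were tested. With edgeR and all mice of both groups, none of 13 on the other side, and none of 24 within 1 Mb, was called. The TKO mice lay outside the range of the other 8 for 2 of those 13, Mtch1 and Tbc1d22b. Tbc1d22b was called with DESeq2 (adjusted p = 0.00639), with DESeq2 and covariates, with no filter on low counts and without TKO 1, with adjusted p from 0.0058 to 0.698 over all alternatives, DESeq2 included. In bins of about 1 Mb from the low end of the window, 3, 2, 0, 2, 0 and 0 genes were called of 32, 30, 19, 13, 12 and 13 tested, beside 0.221% of all genes. The median absolute log2 fold change of TKO against Zmat3-/- mice was 0.124, 0.129, 0.102, 0.147, 0.089 and 0.136 in the same bins. It was lowest in the bin from 28 to 29 Mb, which ends just before Cdkn1a, and did not fall steadily with distance. Over all flanking genes it was 0.123, beside 0.085 for all genes tested and 0.080 for protein-coding genes on other chromosomes.

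Chromosome 17 outside the window was not uniform. Below the window, 7 of 96 protein-coding genes were called and the median absolute log2 fold change was 0.122. Above it, 3 of 397 were called and the median was 0.085. Of the 29 genes called over the whole genome in TKO against Zmat3-/-, 19 were on chromosome 17, 7 were flanking genes, 10 were other protein-coding genes of that chromosome and 3 were counted copies of flanking genes. The values below the window were about as large as those inside it.

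**Figure D4:**
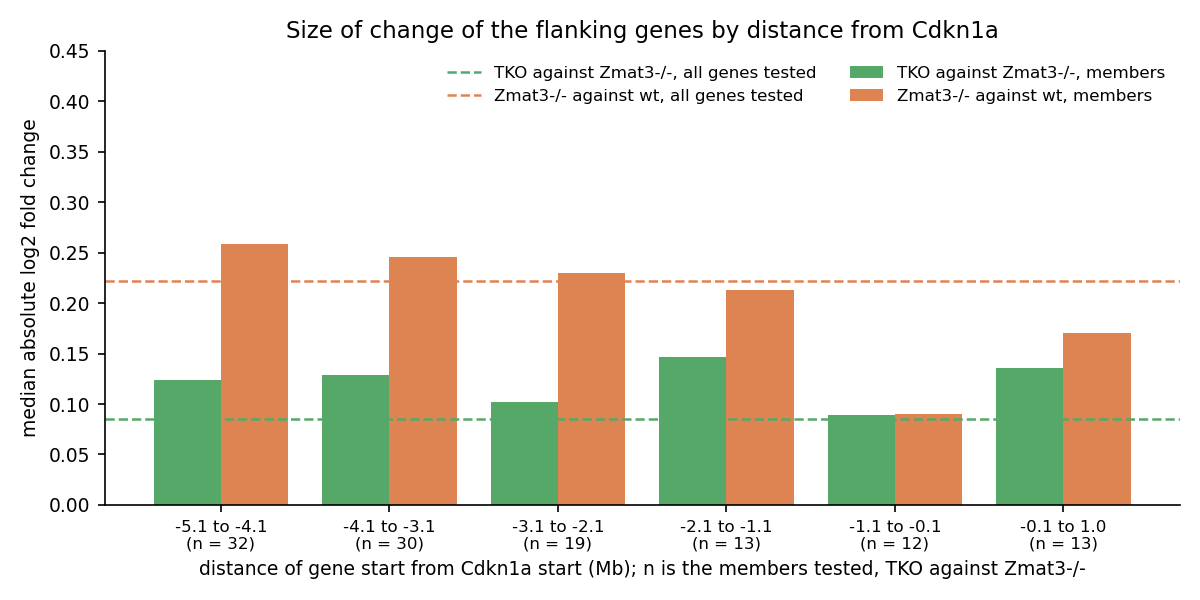
Median absolute log2 fold change of the flanking genes in 6 bins by distance from Cdkn1a, for TKO against Zmat3-/- (green) and Zmat3-/- against wt (orange), with dashed lines for all genes tested in each comparison. The green bars, from 0.089 to 0.147, are all above their line at 0.085, and the orange bars lie on both sides of their line at 0.222.

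In Zmat3-/- against wt mice, the comparison that did not enter the choice of the window, none of 120 tested flanking genes was called, beside 0.763% of 13494 genes. At an unadjusted p below 0.05 there were 22 (18.3%, beside 16.1% of all genes), and DESeq2 called 9 (beside 8.04% of all genes). The median absolute log2 fold change was 0.222 for the flanking genes and 0.222 for all genes tested, and the groups did not overlap for 19 flanking genes (15.8%, beside 14.2%). Log2 fold changes over 0.5 in size occurred in 17 flanking genes (14.2%, beside 15.3%). Leaving out any 1 mouse gave 0 calls (beside 0.124% to 0.766% of all genes). The count of calls was 34 without wt 1 and 2 (33.0% of all genes) and 77 without wt 3 and 4 (56.1% of all genes). The median absolute log2 fold change was then 0.199 and 0.496, beside 0.238 and 0.448 for all genes. The groups did not overlap for 69 and 87 of 120 flanking genes, beside 53.8% and 69.0% of all genes. Rab44, with 7.02 to 10.5 CPM in wt and 3.77 to 6.17 CPM in Zmat3-/- mice, had the lowest log2 fold change (-0.71 ± 0.210, adjusted p = 0.154). It was among the 9 that DESeq2 called. Its log2 fold change was -0.86 without wt 1 and 2 (adjusted p = 0.014) and -0.55 without wt 3 and 4 (adjusted p = 0.056). Wfikkn1, which encodes a secreted protein with protease inhibitor domains, had the highest (0.95 ± 0.301, adjusted p = 0.174), at 1.36 to 3.71 CPM in wt and 3.91 to 4.82 CPM in Zmat3-/- mice, and was among the 9 that DESeq2 called. Wfikkn1 was at 1.29 without wt 1 and 2 (adjusted p = 0.00449) and at 0.68 without wt 3 and 4 (adjusted p = 0.0705). Of the 7 genes called in TKO mice, Pdpk1 had the largest difference in this comparison and Gnptg the next (-0.53, adjusted p = 0.304), and the rest were between -0.31 and 0.27. These values rest on the wt mice used: Pdpk1 was at 0.12 without wt 1 and 2 and at 1.16 without wt 3 and 4, and Gnptg at -0.04 and -0.91.

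Xist, which is expressed from an inactive X chromosome, was high in wt 1 and 2, Zmat3-/- 1 and 2 and TKO 1, at 514 to 1530 CPM, and at most 2.65 CPM in the others. TKO 1 compared with Zmat3-/- 1 and 2, and TKO 2 and 3 with Zmat3-/- 3 and 4, gave differences of -3.39 and -3.60 for Baiap3, -2.11 and -1.50 for Hmga1, and 0.45 and 0.50 for Pdpk1 on the log2 scale. Their signs are fixed by TKO and Zmat3-/- mice not overlapping for these genes, and the differences are given as values and were not tested.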

How the data were processed

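RNA of 11 mice was sequenced from a TruSeq RNA v2 library per mouse. The authors quantified reads with Salmon against GRCm38.p6 and deposited estimated counts per gene, without normalization. All 598598 deposited values were whole numbers. Of 54418 genes, 54096 matched GENCODE M21 by Ensembl identifier, which gave positions and classes (the study used GENCODE vM25), and 322 did not.

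In R 4.3.3, edgeR 4.0.16 (with limma 3.58.1) fitted each pair of genotypes after TMM normalization and gave two-sided quasi-likelihood F-tests with Benjamini-Hochberg adjustment. A gene was tested when its counts, brought to the depth of the shallowest library, reached 20 in a number of mice equal to the size of the smaller group. Xist, Y-linked, rRNA and some immunoglobulin genes were not tested. The standard error is the absolute log2 fold change over the square root of F. CPM use TMM factors over all mice. Floors are 3 counts per library and cover counting error only. Mice are the replicates, grouped by their labels.

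A copy was a gene with at least 50% of its 31-base words in transcripts of a flanking gene. Sequences were aligned with Biopython. Flanking genes, lists and tests were chosen with earlier results of these data known. Genes named with values were those called, the most changed of those not overlapping, the 3 nearest to Cdkn1a on each side, the extremes of each list, and genes with copies, of which 1 is not reported here. Def6, Grm4, Tsr3, Wfikkn1 and the names of the genes not overlapping were added after their values were seen. On simulated counts for TKO against Zmat3-/- (13124 genes), 82% of genes changed by 1 on the log2 scale and 99% of those changed by 3 were recovered, and for Zmat3-/- against wt (13494 genes) 50% and 96%. For TKO against wt (13260 genes) the shares were 23% and 92%, and against the other 8 mice (13522 genes) 53% and 96%. Unchanged genes called in the same order of comparisons numbered 14, 5, 8 and 11. Of genes changed by 1, the sign was wrong for 2 in TKO against wt and for 1 in Zmat3-/- against wt. Counts were simulated independently for each mouse, so they hold no split between wt mice. Alternatives were DESeq2 1.42.0, with and without Xist level and a surrogate variable (sva 3.50.0), RLE factors, other filters, an Xist covariate, the replicate number as a block, copies added, all genotypes in one fit, and mice left out.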

Additional observations from a re-analysis of the deposited data

Results flagged for a closer look

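Groups of 4 mice were searched for a mouse whose gap to the nearest other, over the range of the group on the log2 scale, was above Dixon's critical value for 4 samples. Of 60 groups (30 named genes in wt and in Zmat3-/- mice), 2 had such a mouse, and chance gives about 1 in 20. Snrpc was lowest in Zmat3-/- 4, at 48.1 CPM beside 55.4 to 55.7 CPM in the other Zmat3-/- mice. 4930539E08Rik was lowest in Zmat3-/- 3, at 3.36 CPM beside 4.57 to 4.78 CPM. With edgeR and all mice of both groups, neither gene was called in any comparison.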

How the results depend on the processing

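Percentages in brackets are the shares of all genes called in the same fit. Flanking genes called in TKO against Zmat3-/- mice numbered 7. DESeq2 gave 15 (0.556%), as did DESeq2 with the Xist level and a surrogate variable (0.785%), and no filter on low counts gave 13 (0.307%). The 13 were the 7, Abca3, Decr2, Spsb3, Tbc1d22b, Tbc1d24 and Grm4, and nothing is read from Grm4, which met the count minimum through the TKO mice. Adding copies gave 4 (0.168%), the 3 genotypes in one fit 2 (0.118%), and also asking for an absolute log2 fold change above 1.5 gave 2 (0.122%). The median absolute log2 fold change was between 0.125 and 0.177 with 1 mouse left out (0.085 to 0.119 for all genes) and the calls between 6 and 9 (0.154% to 0.255%). The highest medians, 0.177 and 0.119, were both without TKO 1. Against wt (1 called) DESeq2 gave 9 (2.87%), DESeq2 with covariates 42 (19.2%), no filter 3 (0.209%), the Xist covariate 3 (0.392%) and one fit 5 (1.62%). With wt 1 and 2 left out there were 17 (8.15%), with wt 3 and 4 left out 63 (43.6%). With 1 mouse left out there were 1 to 3 (0.113% to 0.32%). In Zmat3-/- against wt (0 called) DESeq2 gave 9 (8.04%), DESeq2 with covariates 43 (36.7%), wt 1 and 2 left out 34 (33.0%) and wt 3 and 4 left out 77 (56.1%). With 1 mouse left out there were 0 in every case (0.124% to 0.766%). Against the other 8 mice (5 called) DESeq2 gave 13 (1.10%), DESeq2 with covariates 35 (8.48%), copies added 3 (0.229%) and the size threshold 3 (0.155%). With wt 1 and 2 left out there were 18 (2.44%), with wt 3 and 4 left out 63 (34.3%). With 1 mouse left out there were 2 to 5 (0.166% to 0.321%). Genes not overlapping in TKO mice numbered 19 (beside 1.45% of all genes), and 19 to 30 with 1 mouse left out. Groups with fewer mice overlap less easily, and the shares of all genes with 1 mouse left out were not counted. Nothing is therefore read from that range. The causes were not tested. RLE factors, a filter of 50 counts and gene positions by transcription start changed no count by over 1.5 times.

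A replicate block gave 6, 1, 0 and 5 calls in the 4 comparisons (0.16%, 0.121%, 0.0889% and 0.192%), and the median absolute log2 fold change of TKO against Zmat3-/- mice was 0.14, beside 0.095 for all genes. Pdpk1 lost its call. The numbers were not taken as pairing, since same-numbered mice correlated in their deviations from the group means at between -0.003 and 0.386 and not every mouse correlated best with its own number.

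Small log2 fold changes that turned sign with 1 mouse left out were those of Kifc5b (-0.213 to 0.043), Tead3 (-0.168 to 0.43), Srpk1 (-0.036 to 0.072), Kctd20 (-0.023 to 0.054) and Gm28043 (-0.104 to 0.055). With DESeq2 and covariates Tead3 turned to -0.044 and Kctd20 to -0.013. Against the other 8 mice, of 11 fits that left out 1 mouse, Rnps1 lost its call in 8, Hmga1 in 3 (each TKO mouse) and Gnptg in 2 (TKO 2 and TKO 3).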
